A study of Homo sapiens with 12 samples.

Results

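Protocadherins are cell-surface proteins of the cadherin superfamily. The genes described here are the rows of the deposited count table whose symbol starts with PCDH, with the Y-linked PCDH11Y left out. They number 72 of 26334 rows. A row counts as expressed when it holds at least 10 counts in 3 or more of the 12 libraries, and 37 of the 72 did. Of these, 36 passed the filter on low counts of the test applied to all genes, which kept 12775 genes. The symbols PCDHA, PCDHB and PCDHG mark the clustered protocadherins, with 57 rows, and the other 15 rows lie outside the clusters.

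The libraries came from shA673-1c cells. These descend from A673, a line of Ewing sarcoma, and make a short hairpin RNA against EWS::FLI1, the fusion transcript of this tumour, when given doxycycline. All 4 groups had doxycycline, at 1 µg/ml in a medium with blasticidin and zeocin, for 4 days. They differed in the time under 5 µM actinomycin D, a drug that stops transcription: 0, 1, 2 or 4 h, with 3 biological replicates each. The 0 h libraries are the reference, so each comparison asks which protocadherin mRNAs were lost or kept relative to the other mRNAs once synthesis was blocked. The cells are of 1 line, libraries without doxycycline were not analysed here, and the labels do not say whether replicates were separate platings of one culture. P-values therefore set each change against the spread between these libraries, as each fit estimates it, and do not reach other cell lines.

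The clustered genes lie side by side on chromosome 5. In the alpha and gamma clusters, each variable exon has its own promoter and encodes a whole extracellular part, and its transcript is spliced to a few constant exons shared by the cluster. The beta genes are single-exon genes without constant exons. A cell usually uses only some of the promoters, a choice in which the insulator protein CTCF and cohesin take part, and the chosen proteins bind like proteins on neighbouring cells. Nerve cells use such combinations to tell their own branches from those of others. Genes outside the clusters lie on several chromosomes and have single promoters or a few of their own. PCDH7 and PCDH18 lie on chromosome 4, and PCDH9 and PCDH17 on chromosome 13. PCDH1 and PCDH12 lie on chromosome 5, beyond the gamma cluster.

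Totals ran from 9381855 to 10929000 counts per library, and protocadherin rows took 0.0621% to 0.0788% of them. FLI1, part of which is held in the fusion transcript, was read in every library, at 20.5 ± 1.05 CPM at 0 h (counts-per-million of the TMM-scaled total, mean ± SD, n = 3) and 7.42 ± 0.639 at 4 h. Without untreated libraries these values do not test the knockdown. Of 8 Ewing sarcoma markers, CD99 was listed at 0 in every library, and the summed level of the 8 was 451 to 625 CPM at 0 h and 511 to 707 at 4 h, mostly CCND1. Most of the tested markers went the other way from that sum: FLI1, BCL11B, NR0B1 and NKX2-2, 4 of 7, were lower at 4 h and 0 were higher, with a median log2 change of -1.10. With a replicate block CCND1 was higher (adjusted p = 2.32e-07). The neural list, with RBFOX3, SNAP25 and SYT1 of neurons and GFAP of astrocytes, summed to 132 to 150 CPM at 0 h and 136 to 155 at 4 h, mostly SYT1. The epithelial list summed to 391 to 573 CPM at 0 h and 482 to 640 at 4 h, mostly KRT18. The blood list summed to 18.2 to 26.4 CPM at 0 h and 8.8 to 15.6 at 4 h with CD3E at 0. Its HBB had the highest mean of that list, at 17.4 CPM. Endothelial markers summed to 3.02 to 4.52 CPM and liver markers to 0.0944 to 0.566 at 0 h. The part of these lists in the protocadherin results was not tested.

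Most clustered promoters carry a short shared motif, the CGCT box, named for its letters. The windows shown here hold those letters in the promoters of rows with many reads in each cluster. Windows of 3 rows that were not expressed are added, so that both kinds of row can be read side by side. Each window has 30 bases of the RefSeq sequence on assembly GRCh38.p14, 5′ to 3′ on the plus strand, and lies upstream of the annotated start. Capitals mark 1 match to the letters CGCT. The promoter of PCDHGB5 holds 4 such matches and that of PCDHB2 holds 2, so the marked match need not be the shared motif. The alpha rows, chr5:140855837-140855866, chr5:140868879-140868908 and chr5:140827893-140827922, read as follows.
PCDHA10: cacctaaagccaccggatgtCGCTgtcgtc
PCDHA11: cagttttaggcgcaaggtgtCGCTctttac
PCDHA6: cttttggagccgcatgatgtCGCTgtctac
The beta rows lie at chr5:141094540-141094569, chr5:141135175-141135204 and chr5:141182306-141182335.
PCDHB2: tcggaagagacgcggggtggCGCTgcagcc
PCDHB5: taaattaggacgcctggtggCGCTgcaggc
PCDHB16: tcagtgagaacgcgtggtggCGCTgcaggt
The gamma rows lie at chr5:141420968-141420997, chr5:141397886-141397915 and chr5:141382645-141382674.
PCDHGA11: taagaatgggctctaggcgcCGCTgctcac
PCDHGB5: ggccaaagtgcagagcttggCGCTccagat
PCDHGA7: ttagtaaggactcacagcgcCGCTgttcac
The rows that were not expressed lie at chr5:140794777-140794806, chr5:141245310-141245339 and chr5:141412927-141412956.
PCDHA2: tccttttagccacatgatgtCGCTgtccac
PCDHB15: gcaaagacaacgcatggtggCGCTgcaggc
PCDHGA10: cttcttaggactctgagcgcCGCTgttcac

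RefSeq promoter windows, 250 bases before to 50 after each annotated start, were at hand for 47 clustered genes (52 windows). CGCT on the gene's strand was found in 51 of the 52 (98.1%) and in 54.3% of all 35116 windows of that length. On either strand, as CGCT or AGCG, it was found in 98.1% and 70%. With the whole match more than 10 and at most 100 bases before the start, it was found in 43 clustered windows (82.7%) against 25.4% of all windows. The match of PCDHB5, which begins 11 bases before the start, falls outside that placement. Clustered promoters of both kinds of row held it alike: 28 of 28 windows of expressed genes and 23 of 24 of genes that were not expressed, the exception being PCDHA9. A row under the count minimum is not shown to have an unused promoter. Counts of alpha and gamma rows may include reads of shared exons, so these groups do not measure promoter use. Of 14 windows of genes outside the clusters, 8 (57.1%) held the letters on the gene's strand and 3 (21.4%) held them in the narrower placement. These counts describe letters in a window, and binding was not measured.

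Part of each cluster was read. Expressed rows were 8 of 15 alpha, 10 of 19 beta, 12 of 23 gamma and 7 of 15 outside the clusters. The expressed alpha rows were PCDHA3, PCDHA6, PCDHA10, PCDHA11, PCDHA12, PCDHA13, PCDHAC1 and PCDHAC2. PCDHAC1 and PCDHAC2 are the C-type variable exons at the end of that cluster. In the beta cluster they were PCDHB2, PCDHB5, PCDHB6, PCDHB8, PCDHB9, PCDHB10, PCDHB11, PCDHB12, PCDHB14 and PCDHB16. The gamma rows were PCDHGA1, PCDHGA4, PCDHGA6, PCDHGA7, PCDHGA11, PCDHGB1, PCDHGB2, PCDHGB3, PCDHGB5, PCDHGC3, PCDHGC4 and PCDHGC5, so all 3 C-type rows of that cluster were among them. Outside the clusters they were PCDH1, PCDH7, PCDH9, PCDH10, PCDH12, PCDH17 and PCDH18. PCDHGC4 met the minimum in 3 libraries and was the expressed row that the filter of the test left out.

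**Figure D1:**
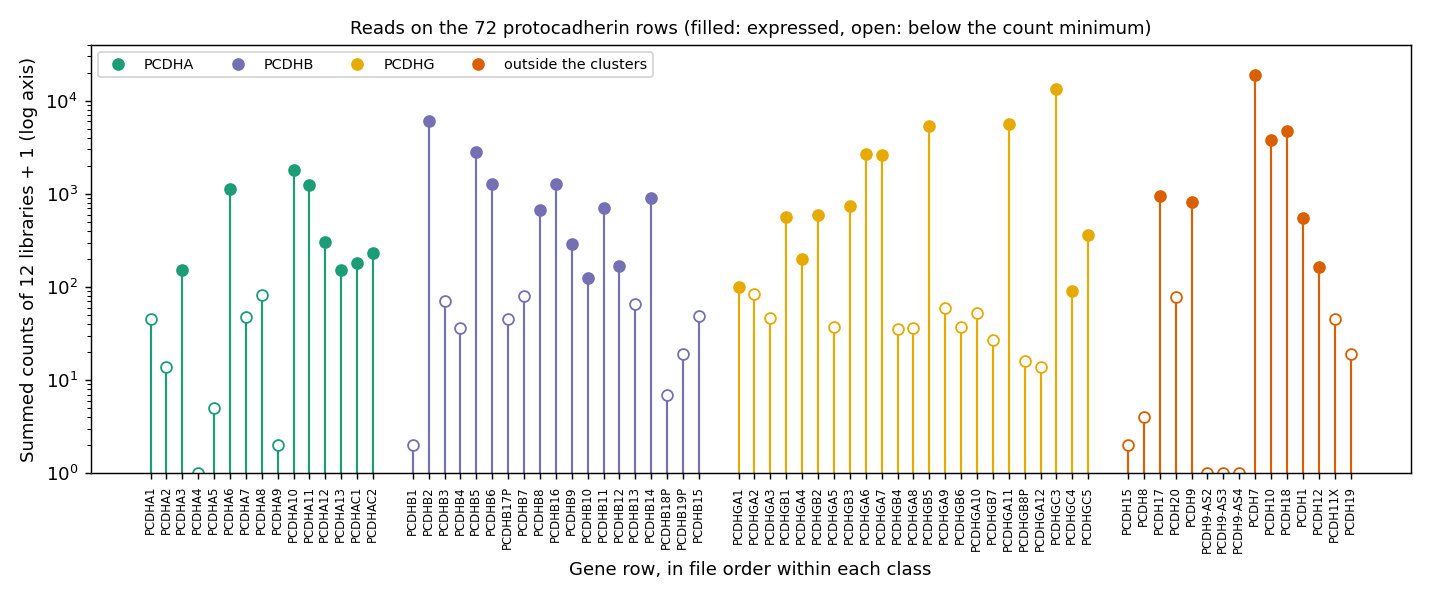
Counts summed over the 12 libraries, plus 1, on a log axis for each of the 72 rows, with filled points for expressed rows and open points for rows below the minimum. A few rows carry most reads of each class: PCDH7, PCDHGC3 and PCDHB2 stand highest outside the clusters, in gamma and in beta.

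Reads were concentrated on few rows. PCDHA10, PCDHA11 and PCDHA6 held 77.7% of the 5366 alpha counts. PCDHB2, PCDHB5 and PCDHB16 held 69.2% of the 14620 beta counts, and PCDHB2 alone 41.2%. PCDHGC3, PCDHGA11 and PCDHGB5 held 74.3% of the 32701 gamma counts, and PCDHGC3 alone 40.7%. Outside the clusters PCDH7, PCDH18 and PCDH10 held 91.3% of 30185 counts. The alpha and gamma shares depend on how reads of shared constant exons were assigned, which is not given in the sources used here. In GENCODE 29, alpha genes share 19.2% to 56.6% of their exon bases with other alpha genes, and gamma genes up to 64.4%. Beta genes share none with other beta genes, and each of the 19 beta rows is 1 block of exon. Their counts thus do not depend on shared beta exons, except where reads fit near-identical copies. Overlap with genes outside the class was not checked.

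The remaining rows were near the floor. In the alpha cluster the highest count in any library was 7 for PCDHA1, 4 for PCDHA2, 2 for PCDHA5, 7 for PCDHA7, 13 for PCDHA8 and 1 for PCDHA9, and PCDHA4 had none. In the beta cluster it was 1 for PCDHB1, 10 for PCDHB3, 6 for PCDHB4, 13 for PCDHB7, 9 for PCDHB13 and 8 for PCDHB15. The beta pseudogenes PCDHB17P, PCDHB18P and PCDHB19P reached 6, 2 and 3. Counts this low are near the limit of detection at the depth of these libraries, and a row under the minimum is not shown to be silent. In the gamma cluster the highest count was 14 for PCDHGA2, 8 for PCDHGA3, 5 for PCDHGA5, 5 for PCDHGA8, 8 for PCDHGA9, 10 for PCDHGA10 and 3 for PCDHGA12. It was 5 for PCDHGB4, 8 for PCDHGB6, 5 for PCDHGB7 and 3 for the pseudogene PCDHGB8P. Outside the clusters PCDH8 and PCDH15 reached 1, PCDH19 reached 3, PCDH11X reached 6 and PCDH20 reached 23, with 10 or more in 2 libraries. The antisense rows PCDH9-AS2, PCDH9-AS3 and PCDH9-AS4 had no count in any library.

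Levels were compared between genes per kilobase of exon (GENCODE 29), and only for classes without shared exons. Among beta genes at 0 h, PCDHB2 stood at 11.1 ± 0.949 CPM per kb and PCDHB5 at 6.48 ± 1.03 (n = 3). PCDHB6 followed at 3.04 ± 0.572. PCDHB8 at 2.13 ± 0.428, PCDHB16 at 1.99 ± 0.224, PCDHB14 at 1.57 ± 0.434 and PCDHB11 at 1.51 ± 0.137 lay within about 1 SD of their neighbours in this order. PCDHB2 and PCDHB5 were set apart from the rest by more than their spread. PCDHB9 (0.619 ± 0.0733), PCDHB12 (0.405 ± 0.0137) and PCDHB10 (0.241 ± 0.16) were lowest. Outside the clusters PCDH7 led at 13.6 ± 2.07 CPM per kb, and PCDH18 (6.9 ± 3.71) had the widest spread. PCDH10 stood at 3 ± 0.133, PCDH17 at 1.06 ± 0.16, PCDH1 at 0.692 ± 0.041, PCDH9 at 0.279 ± 0.00131 and PCDH12 at 0.181 ± 0.0257. PCDH9 has 30944 bases of annotated exon, many of which a given transcript need not hold, so its value per kb is low for its reads.

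No protocadherin passed the test at 1 or 2 h, by the quasi-likelihood test of edgeR with an adjusted p under 0.05 over all genes. At 1 h, 1.16% of all tested genes were lower and 0.172% higher, against 0 of 36 protocadherins in each direction, and none had an unadjusted p under 0.05. At 2 h, 11.7% of all genes were lower and 3.39% higher, against 0 and 0 of 36, with 1 lower and 1 higher at an unadjusted p under 0.05. DESeq2 also called 0 of 36 at both times, when it called 1.42% of all genes lower and 0.313% higher at 1 h and 11.3% and 3.73% at 2 h. For the change of rate, in which the log2 change over the first 2 h is taken from that over the next 2 h, 0.227% of all genes were negative and 0.384% positive, and 0 of 36 protocadherins were called in either direction, with none at an unadjusted p under 0.05. DESeq2 called 0.532% of all genes negative and 0.603% positive there, and 0 of 36 protocadherins. Replicate numbers pair the libraries, and with the replicate as a block more calls were made, among all genes too. In that fit 1 h had 6.28% lower and 2.52% higher, and PCDH18 was lower (log2 change -0.25, adjusted p = 0.0316). At 2 h it had 19.5% lower and 15.9% higher, with PCDH9 (-0.48, adjusted p = 0.0151) and PCDH18 (-0.20, adjusted p = 0.0418) lower and PCDHGA11 higher (adjusted p = 0.0245). The change of rate had 5.46% negative and 7.39% positive, with PCDH18 negative (-0.44, adjusted p = 0.0348).

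At 4 h, PCDH9 and PCDH17, both outside the clusters, were lower, and PCDHB2 and 5 gamma rows were higher. Most protocadherins were not called, and log2 changes of both signs occurred in each class: 3 of 7 genes outside the clusters were above 0 and 10 of 29 clustered genes below 0. Of all genes, 24.6% were lower and 23.3% higher at 4 h. Of the 36 protocadherins, 2 (5.56%) were lower and 6 (16.7%) higher, so neither share was above that of all genes. By class, 2 of 7 genes outside the clusters (28.6%) were lower and 0 higher, and of 29 clustered genes 0 were lower and 6 (20.7%) higher. The median log2 change was -0.29 outside the clusters, 0.17 in the clusters and 0.05 over all genes, of which the middle 50% ran from -0.40 to 0.31. DESeq2, with 24.5% of all genes lower and 20.3% higher, called PCDH9 and PCDH17 lower and PCDHGA7, PCDHGB5, PCDHGA11 and PCDHGC3 higher. With the replicate block, 30.8% of all genes were lower and 34.8% higher, and the protocadherins had 4 lower, all outside the clusters, and 10 higher, all clustered. By CPM alone, the 4 h libraries lay below all 0 h libraries in 2 of 7 genes outside the clusters and in 0 of 29 clustered genes, and above them in 0 and 9, against 27.5% below and 27.9% above among all genes. The difference between the classes was not tested, since members are not replicates.

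**Figure D2:**
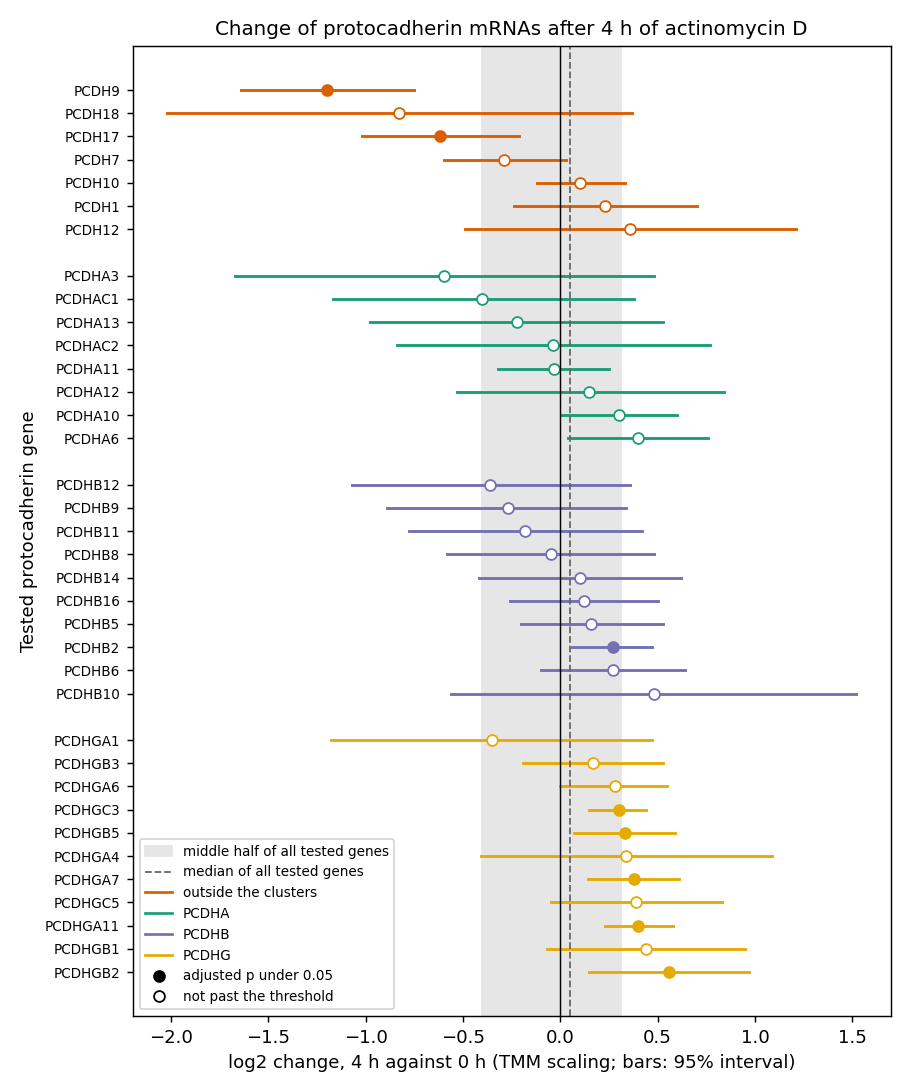
Log2 change at 4 h against 0 h for the 36 tested genes by class, with 95% intervals as bars, filled points past the threshold, and a grey band from -0.40 to 0.31 that holds the middle 50% of all tested genes. Filled points lie on the left for PCDH9 and PCDH17 and on the right for PCDHB2 and 5 gamma rows. Under ribosomal protein scaling the band and all points move to the left and no point on the right is called.

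Without spike-in RNA, a change is measured against the rest of the library's mRNA, and the rises in particular depend on the scaling. When libraries were scaled to the ribosomal protein mRNAs, the median of all genes moved from 0.05 to -0.31 and that of the clustered genes from 0.17 to -0.19. In that fit 44.7% of all genes were lower and 1.28% higher, 0 protocadherins were higher, and PCDH7, PCDH9, PCDH17 and PCDHA11 were lower. At 2 h it had 17.1% of all genes lower and 0.196% higher, and PCDH9 was lower (-0.62, adjusted p = 0.0488). With raw library totals, where 31% of all genes were lower and 10.5% higher, PCDHGA11 was the 1 higher call. PCDH9, PCDH17 and PCDH7 were then lower. A change of scaling shifts all genes by about the same amount, so a difference from the median of all genes is kept by construction: the median of the clustered genes was 0.11 higher and that of the genes outside the clusters differed by -0.34, on the log2 scale, under each of the 3 scalings. Fewer cells of a type and less RNA per cell cannot be told apart in such bulk libraries.

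PCDH9 encodes a protocadherin of nervous tissue and had the largest fall among the members. It stood at 8.59, 8.67 and 8.64 CPM in replicates 1 to 3 at 0 h and at 8.38, 7.26 and 7.39 at 1 h. At 2 h it stood at 5.48, 5.46 and 7.54 CPM, and at 4 h at 5.1, 2.72 and 3.5. Every 4 h library lay below every library of 0 h, 1 h and 2 h, and the 0 h libraries were nearly equal. The log2 change at 4 h was -1.20 (SE 0.20, 2.3-fold lower, adjusted p = 0.000387), at the 9.1 percentile of all genes. It was lower in 3 of 3 replicates and stayed past the threshold without any 1 library, with adjusted p up to 0.00229.

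PCDH17 also fell. It was read at 7.74, 8.39 and 10.3 CPM at 0 h, 8.48, 6.88 and 10.2 at 1 h, 7.54, 6.07 and 8.79 at 2 h and 5.55, 5.54 and 6.15 at 4 h. All 4 h libraries lay below all 0 h libraries, and replicate 3 was highest at each time. Its log2 change at 4 h was -0.62 (SE 0.19, 1.53-fold lower, adjusted p = 0.0158). It missed the threshold without replicate 3 of 0 h, at an adjusted p of 0.0584, and held with the block at 0.000435.

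**Figure D3:**
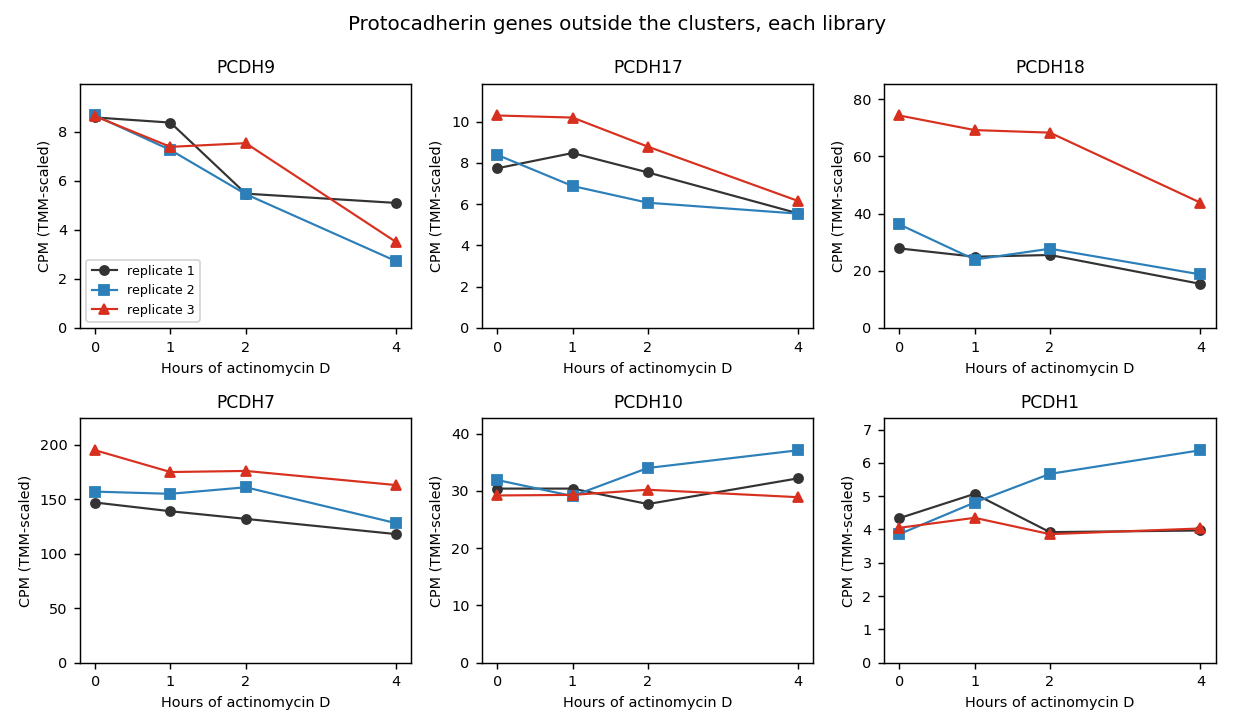
CPM in each library against hours of actinomycin D for 6 genes outside the clusters, with 1 line per replicate and each vertical axis from 0. PCDH9 and PCDH17 end below their start in every replicate, and PCDH18 in replicate 3 runs above the other replicates at every time.

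PCDH18 showed the largest gap between replicates. At 0 h it stood at 27.8, 36.2 and 74.3 CPM, at 1 h at 24.9, 23.9 and 69.2 and at 2 h at 25.5, 27.7 and 68.3. At 4 h it stood at 15.4, 18.7 and 43.8 CPM. Replicate 3 was higher than both others at every time, and its 4 h library lay above the 0 h libraries of replicates 1 and 2, so the groups overlap although each replicate had its lowest value at 4 h. Replicate 3 was on average 2.57 times the mean of the other replicates, at the 99.6 percentile of all tested genes, whose median ratio was 1.01 with 90% of genes between 0.752 and 1.51. The fit without a block gave a log2 change at 4 h of -0.83 (SE 0.55, adjusted p = 0.238). With the block the change was -0.84 (SE 0.08, adjusted p = 5.18e-10), and with replicates 1 and 2 alone, an alternative chosen after seeing the data, it was -0.92 (adjusted p = 0.000176). The changes within replicates were -0.85, -0.95 and -0.76.

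PCDH7, the protocadherin with the most reads, passed the test in some of the fits. It stood at 147, 157 and 195 CPM at 0 h, 139, 155 and 175 at 1 h, 132, 161 and 176 at 2 h and 118, 128 and 163 at 4 h. Replicate 3 was highest at each time and the 0 h and 4 h libraries overlap, yet each replicate was lower at 4 h, by a log2 change of -0.32, -0.29 and -0.26. Without a block the change was -0.29 (SE 0.15, adjusted p = 0.127), and it passed without replicate 3 of 4 h (adjusted p = 0.0305). It also passed with the block (adjusted p = 4.88e-06) and with replicates 1 and 2 alone (-0.32, adjusted p = 0.0144). In those replicates alone, where 26% of all genes were lower and 22.7% higher, 4 of 7 genes outside the clusters were lower and 7 of 29 clustered genes higher.

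The other genes outside the clusters gave no call in any of these fits. PCDH10, a protocadherin known from nervous tissue that is often silenced by methylation in tumours, stood at 30.4, 31.9 and 29.2 CPM at 0 h and 30.4, 29.1 and 29.3 at 1 h. It stood at 27.7, 34 and 30.2 CPM at 2 h and 32.2, 37.1 and 28.9 at 4 h. The 4 groups overlap throughout. Its log2 change at 4 h was 0.10, with a 95% interval from -0.12 to 0.33. PCDH1 stood at 4.09 ± 0.241 CPM at 0 h and 4.79 ± 1.38 at 4 h (0.23, adjusted p = 0.405), and PCDH12, known from endothelium, at 1.23 ± 0.178 and 1.59 ± 0.494 (0.36, adjusted p = 0.475).

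Replicate 3 also stood apart in some clustered rows. Its mean ratio to the others was 1.69 for PCDHA3, 1.45 for PCDHB11 and 1.43 for PCDHB14, and it was 1.25 for PCDH7 and for PCDH17 and 1.05 for PCDH9. PCDH7, PCDH17, PCDH18, PCDHB5, PCDHB11 and PCDHB14 were highest in replicate 3 at 4 of 4 times, and PCDHA11 was lowest there at 4 of 4. The part of this difference in the results was not tested beyond the fits with the block and without replicate 3.

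In the gamma cluster 5 of 11 tested rows (45.5%) were higher at 4 h and 0 lower, beside 23.3% and 24.6% of all genes. The median log2 change was 0.34, and 10 of the 11 were above 0. With ribosomal protein scaling 0 of the 11 were higher and the median was -0.02, beside -0.31 over all genes. With raw library totals 1 was higher. These rows share constant exons and the assignment of such reads is not given, so the rises need not be separate results. PCDHGC3, the C-type row with the most reads of any clustered gene, stood at 96.6, 106 and 99.8 CPM at 0 h and 105, 111 and 103 at 1 h. It stood at 106, 108 and 99.9 CPM at 2 h and 125, 131 and 116 at 4 h. The 4 h libraries lay above all others. Against 0 h the log2 change was 0.30 (SE 0.07, 1.23-fold, adjusted p = 0.00247), higher in 3 of 3 replicates. It was -0.07 with ribosomal protein scaling.

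PCDHGA11 had the smallest adjusted p of the rises. It stood at 41.2, 37.8 and 43.4 CPM at 0 h, 43.3, 41 and 44.7 at 1 h, 48.8, 45.5 and 45.3 at 2 h and 53.4, 49.9 and 58.6 at 4 h. Libraries of 2 h and of 4 h all lay above the 0 h libraries, without overlap. The log2 change at 4 h was 0.40 (SE 0.08, 1.32-fold, adjusted p = 0.00136), and 0.04 with ribosomal protein scaling. PCDHGA11 and PCDHGC3 kept their call without any 1 library, with adjusted p up to 0.0098 and 0.0145.

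PCDHGB5 stood at 41.5, 38.5 and 41.1 CPM at 0 h, 46.1, 36.5 and 38.1 at 1 h, 51, 44.1 and 41.7 at 2 h and 58.9, 47.8 and 45.5 at 4 h. The 4 h libraries lay above those of 0 h, with replicate 1 the highest. Its log2 change at 4 h was 0.33 (SE 0.12, adjusted p = 0.036) and -0.03 with ribosomal protein scaling. The call was lost without replicate 1, 2 or 3 of 0 h (adjusted p = 0.0602, 0.122 and 0.0776) or replicate 1 of 4 h (0.17), and held with the block (0.000168).

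PCDHGA7 went from 19.5 ± 2.51 CPM at 0 h to 25.3 ± 1.51 at 4 h (log2 change 0.38, SE 0.11, adjusted p = 0.0119), or 0.02 with ribosomal protein scaling. It passed without any 1 library. PCDHGB2, with few reads, went from 4.13 ± 0.686 to 6.09 ± 0.803 CPM (0.56, SE 0.19, adjusted p = 0.0272). PCDHGB2 lost the call without replicate 1 or 2 of 0 h (adjusted p = 0.101 and 0.0567) or replicate 2 or 3 of 4 h (0.0703 and 0.0934), and its change was 0.20 with ribosomal protein scaling. With the block PCDHGB1 (0.44, adjusted p = 0.0383) and PCDHGA6 (adjusted p = 0.0107) were called too. PCDHGA6 was also called without replicate 3 of 0 h (adjusted p = 0.0205). The 4 rows with no call in either fit were PCDHGC5 (0.39), PCDHGA4 (0.34), PCDHGB3 (0.17) and PCDHGA1 (-0.35).

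**Figure D4:**
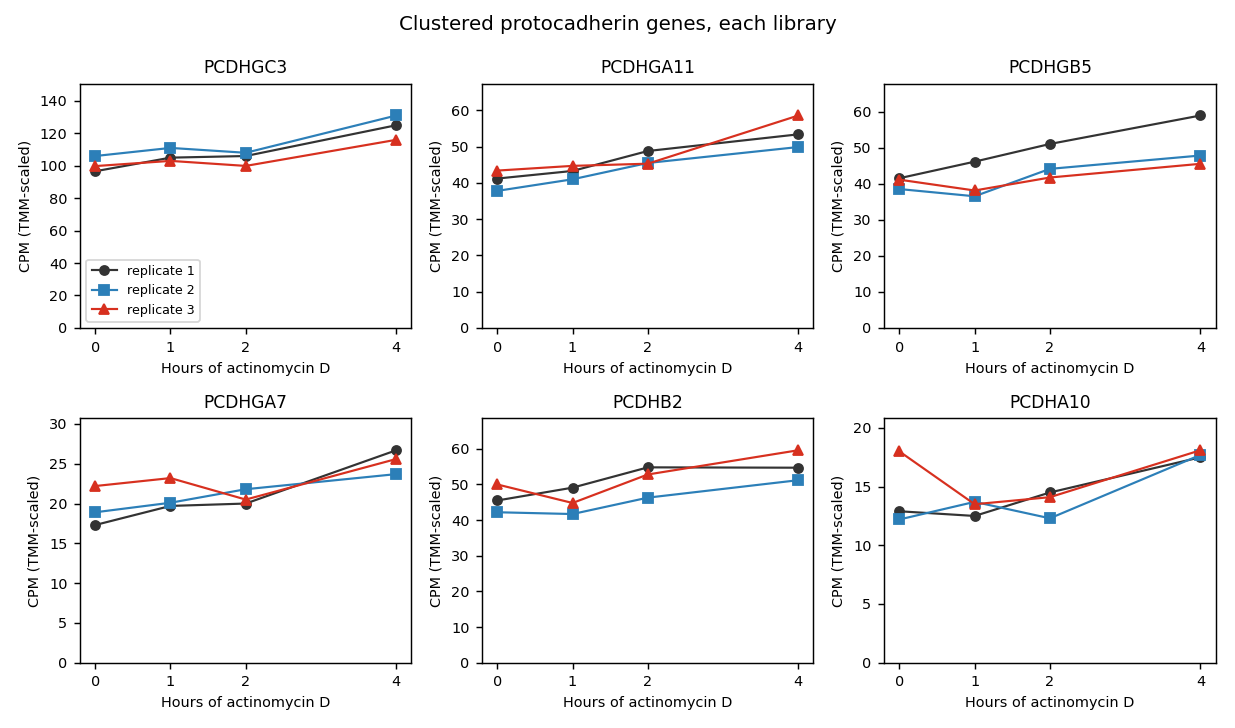
CPM in each library against hours of actinomycin D for 6 clustered genes, with 1 line per replicate and each vertical axis from 0, under TMM scaling. In each panel except PCDHA10 the 4 h points lie above all 0 h points, and in PCDHA10 the 0 h point of replicate 3 reaches the 4 h level. PCDHGC3, PCDHGB5, PCDHB2 and PCDHA10 are below 0 under ribosomal protein scaling.

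In the beta cluster 1 of 10 tested genes was higher at 4 h and 0 lower, with a median log2 change of 0.11. PCDHB2, the beta gene with the most reads, stood at 45.5, 42.2 and 50 CPM at 0 h and 49.1, 41.7 and 44.8 at 1 h. It stood at 54.8, 46.3 and 52.8 CPM at 2 h and 54.7, 51.2 and 59.6 at 4 h. The 4 h libraries lay above those of 0 h by a narrow gap. Its change at 4 h was 0.27 on the log2 scale (SE 0.10, 1.2-fold, adjusted p = 0.0373) and -0.10 with ribosomal protein scaling. The call held with the block (adjusted p = 0.00069). It was lost with replicates 1 and 2 alone (adjusted p = 0.0821) and without replicate 1 or 2 of 0 h (0.0853 and 0.158), replicate 3 of 1 h (0.05), replicate 3 of 2 h (0.0506), or replicate 1 or 3 of 4 h (0.0707 and 0.134).

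PCDHB5 and PCDHB16, the next beta genes by reads, gave no call. PCDHB5 stood at 22.3, 18.5 and 25.5 CPM at 0 h, 19, 18 and 24.5 at 1 h, 23.2, 19.8 and 28.3 at 2 h and 26.1, 20.9 and 27.4 at 4 h. Replicate 2 was lowest and replicate 3 highest at each time, and the groups overlap. The log2 change at 4 h was 0.16 (SE 0.17, adjusted p = 0.447). PCDHB16 stood at 11, 8.77 and 10.1 CPM at 0 h, 12.6, 9.33 and 9.82 at 1 h, 10.8, 8.6 and 13 at 2 h and 11.6, 9.41 and 11.7 at 4 h. Its groups overlap too, with a log2 change of 0.12 (SE 0.18, adjusted p = 0.591). The other 7 beta genes had log2 changes from -0.36 (PCDHB12) through -0.27 (PCDHB9), -0.18 (PCDHB11), -0.05 (PCDHB8), 0.10 (PCDHB14) and 0.27 (PCDHB6) to 0.48 (PCDHB10).

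In the alpha cluster 0 of 8 tested rows passed at 4 h in either direction, with a median log2 change of -0.03 and 2 higher at an unadjusted p under 0.05. DESeq2 called 0 as well. PCDHA10 stood at 12.9, 12.2 and 18 CPM at 0 h, 12.5, 13.7 and 13.5 at 1 h, 14.5, 12.3 and 14.1 at 2 h and 17.5, 17.7 and 18.1 at 4 h. Replicate 3 of 0 h lay among those of 4 h, and the others lay below. The log2 change at 4 h was 0.30 (SE 0.14, adjusted p = 0.0864), and it passed with the block (adjusted p = 0.0168), with replicates 1 and 2 alone (adjusted p = 0.0118) and without replicate 3 of 0 h (adjusted p = 0.00488).

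PCDHA6 stood at 8.59, 7.07 and 9.34 CPM at 0 h, 8.17, 7.73 and 8.87 at 1 h, 11, 6.88 and 9.66 at 2 h and 10.9, 10.9 and 11.2 at 4 h. The 4 h libraries were close to each other and above those of 0 h. Its log2 change was 0.40 (SE 0.16, adjusted p = 0.063). It passed with the block (adjusted p = 0.00854) and without replicate 1 or 2 of 2 h (0.0486 and 0.0274). PCDHA11 stood at 11.6, 9.99 and 9.69 CPM at 0 h, 9.62, 10.6 and 8.61 at 1 h, 11.8, 9.91 and 9.76 at 2 h and 10.4, 10.9 and 9.33 at 4 h. Replicate 3 was lowest at each time and the groups overlap. At 4 h it had a log2 change of -0.03 and a 95% interval from -0.32 to 0.25. With ribosomal protein scaling it was lower (-0.39, adjusted p = 0.0336). The remaining alpha rows had few reads, and their log2 changes were -0.60 for PCDHA3, -0.40 for PCDHAC1, -0.22 for PCDHA13, -0.04 for PCDHAC2 and 0.15 for PCDHA12.

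The precision of the log2 changes, of called and uncalled genes together, can be read from the intervals. At 4 h the lower end of the 95% interval lay above a log2 change of -1 in 25 of 29 clustered genes and in 4 of 7 outside the clusters, and above -0.5 in 18 and 3. For those genes a fall larger than these limits, relative to the other mRNAs under TMM scaling, lies outside the interval. The clustered rows whose interval reached below -1, PCDHA3, PCDHAC1, PCDHB12 and PCDHGA1, had few reads. Outside the clusters the intervals of PCDH9 and PCDH17, both called, and of PCDH18 reached below -1.

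The classes can also be set against each other within a library, where scaling does not enter. Summed clustered counts were 1.73, 1.54 and 1.34 times the summed counts of the other protocadherin rows in replicates 1 to 3 at 0 h. The ratio was 1.9, 1.69 and 1.41 at 1 h, 2.18, 1.68 and 1.46 at 2 h and 2.72, 2.32 and 1.96 at 4 h. Every replicate ended higher than it began, by 1.57, 1.51 and 1.47 times, and replicate 3 had the lowest ratio at each time. All 4 h ratios lay above all 0 h ratios. These sums follow the rows with the most reads, so the ratio was also taken without PCDH7 and without PCDHGC3, leaving out 1 row at a time. Without PCDH7 it went from 4.88, 4.19 and 3.35 to 7.69, 6.41 and 5.52, by 1.58, 1.53 and 1.65 times. Without PCDHGC3 it went up by 1.56, 1.5 and 1.46 times. PCDHGC3 against PCDH7 alone, the leading row of each kind, went from 0.657, 0.68 and 0.512 to 1.06, 1.02 and 0.71. With PCDH7 left out, PCDH18 held the most reads of the rows outside the clusters, at 4780 counts over the 12 libraries. PCDH18 fell in each replicate at 4 h (-0.85, -0.95 and -0.76), while PCDH10, PCDH1 and PCDH12 had log2 changes of 0.10, 0.23 and 0.36. No ratio was taken without PCDH7 and PCDH18 together, so a change shared by the class was not tested. A ratio shows unequal change and does not say which side moved.

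**Figure D5:**
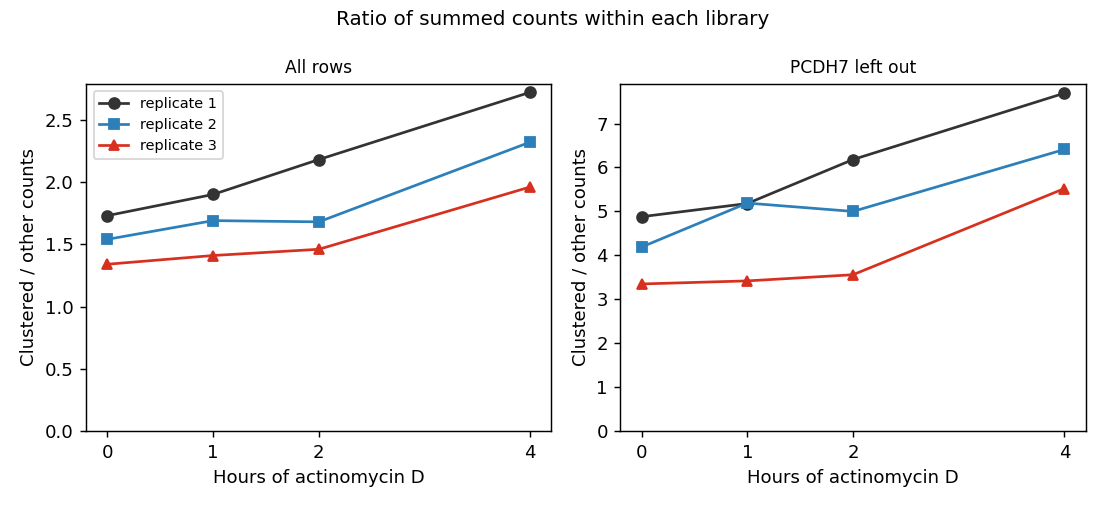
Summed counts of clustered rows divided by those of the other protocadherin rows in each library against hours of actinomycin D, with all rows on the left and PCDH7 left out on the right, and each axis from 0. Each replicate's line ends above its start, from 1.34 to 1.73 at 0 h to 1.96 to 2.72 at 4 h with all rows.

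In CPM, the gamma rows summed to 245 ± 9.3 at 0 h and 308 ± 9.5 at 4 h, the beta rows to 115 ± 14.2 and 130 ± 13 and the alpha rows to 42.9 ± 5.37 and 48 ± 0.954. The rows outside the clusters summed to 267 ± 51.2 and 212 ± 36.4. Within replicates the latter went from 228 to 182, from 248 to 201 and from 325 to 253, lower in 3 of 3, while the groups overlap through replicate 3. No test was applied to these sums.

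Genes that act with protocadherins were followed as lists, whose share of calls at 4 h is to be read against 24.6% lower and 23.3% higher among all genes, against 30.8% and 34.8% for counts with the replicate block, and against 44.7% and 1.28% for counts with ribosomal protein scaling. Of 14 tested genes for promoter choice and chromatin loops, 6 were lower and 2 higher, with a median log2 change of -0.18. CTCF, the insulator protein that binds clustered promoters, went from 84.4, 85.2 and 80.3 CPM at 0 h to 25, 21 and 23.6 at 4 h. All 3 libraries fell by a like amount, and the log2 change was -1.84 (SE 0.08, 3.59-fold lower, adjusted p = 2.53e-09). ZNF143, a zinc finger protein found at loop anchors, fell by 1.23 on the log2 scale (adjusted p = 3.08e-06), and PDS5B, a cohesin regulator, by 0.93 (adjusted p = 4.86e-06). With the block 7 were lower, the added gene being the cohesin subunit RAD21 (adjusted p = 0.0672 without and 0.000267 with the block). With ribosomal protein scaling 11 of the 14 were lower, beside 44.7% of all genes, and 0 higher.

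The cytoplasmic tails of clustered protocadherins bind kinases and the WAVE complex, which drives actin branching. Of 13 genes on that list, 1 was lower and 5 higher at 4 h, with a median of 0.13. BRK1, a WAVE subunit, rose by a log2 change of 0.39 (adjusted p = 5.41e-05) and CYFIP2, another subunit, by 0.42 (adjusted p = 0.000855), while the kinase FYN was lower (-0.44, adjusted p = 0.000593). With the block 6 were higher, the added gene being the GTPase RAC1 (adjusted p = 0.0596 without and 0.00652 with the block). With ribosomal protein scaling 7 of 13 were lower and 0 higher, and the changes of BRK1 and CYFIP2 were 0.03 and 0.06.

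Protocadherins are cut by ADAM10 and then by gamma-secretase. Of 8 genes of these enzymes 4 were higher and 0 lower, with a median of 0.24. With the block, which called 34.8% of all genes higher, 7 of 8 were higher. NCSTN (0.43, adjusted p = 4.29e-05) and APH1A (0.26, adjusted p = 0.00178), both subunits of gamma-secretase, and the sheddase ADAM17 (0.29, adjusted p = 0.00353) were higher. With ribosomal protein scaling 2 were lower and 0 higher, and APH1A and ADAM17 turned to -0.10 and -0.07.

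Among classical cadherins and catenins, 12 of 25 genes were tested, 3 were higher and 0 lower, with a median of 0.22. With the block JUP, CDH2, CDH4 and CDH11 were added, for 7 of 12, beside 34.8% of all genes. CDH24, a type II cadherin, rose by 0.85 (adjusted p = 2.69e-05) and stayed higher with ribosomal protein scaling (0.49, adjusted p = 0.00291). CDH13, a cadherin held by a lipid anchor, rose by 0.42 (adjusted p = 0.000228) and CTNNA1, the catenin that links cadherins to actin, by 0.33 (adjusted p = 0.00449). Under ribosomal protein scaling these were 0.06 and -0.03, with 2 of the list lower and 1 higher.

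Of 8 tested genes of the large FAT, Dachsous and CELSR cadherins, 2 were lower and 3 higher, with a median of 0.29. With the block CELSR2 was also higher (adjusted p = 0.322 without and 0.00181 with the block), for 4 of 8. FJX1, which is related to the kinase that modifies FAT and Dachsous cadherins, was lower (-1.43, adjusted p = 7.31e-07), as was FAT4 (-0.53, adjusted p = 0.00117). CELSR1, a cadherin of planar cell polarity, was higher (0.36, adjusted p = 0.00256) and stood at -0.00 with ribosomal protein scaling, where 3 of the list were lower and 0 higher.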

How the data were processed

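RNA was polyadenylated RNA, with stranded Illumina TruSeq mRNA libraries, per the labels. The authors deposited raw counts per gene symbol, with no normalization. Per the submitters' processing notes, FastQC and STAR were used with build hg19, and no version is stated. Not given in the sources used here are the counting program, annotation, strand setting and treatment of multiply mapped reads. Reads on shared constant exons of the alpha and gamma clusters, on similar beta genes, or on overlapping genes could thus be split between rows.

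Counts were tested with edgeR 4.0.16 in R 4.3.3 (filterByExpr, TMM, quasi-likelihood test, 12 libraries, Benjamini-Hochberg over all tested genes, threshold 0.05), after a run on simulated data. SE is the log2 change over the square root of F, and pair changes are ratios of CPM. Replicates differed beyond sampling noise (chi-square per degree of freedom 4.13 to 15.2). The replicate numbers, taken from the labels, pair the libraries: deviations from group means correlated at 0.263 to 0.649 within a number and -0.501 to 0.16 between numbers. Blocked values are given where they change a call.

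Members and lists were chosen with earlier results of these data known. Every expressed member is named, with values in every library for the 3 with the highest mean counts per class, and for members past the threshold at 1 h, in the change of rate, or at 4 h with a log2 change over 1 in size, plus others called in some fit, added after their values were seen. From each list up to 3 genes with the smallest adjusted p are named, plus some whose call changed with the block, added after their values were seen. Alternatives were other scalings, filters, DESeq2 1.42.0, the block and leaving out libraries. Exon lengths came from GENCODE 29, a GRCh38 annotation matched by symbol, and promoters from RefSeq. Some items that met these rules are not reported here.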

Additional observations from a re-analysis of the deposited data

How the results depend on the processing

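With the replicate block, protocadherin calls went from 0 to 1 lower at 1 h, to 2 lower and 1 higher at 2 h and to 1 negative change of rate, and at 4 h to 4 lower (all 4 outside the clusters) and 10 higher (all 10 clustered). It changed no call to the opposite direction. With ribosomal protein scaling there were 1 lower at 2 h, and at 4 h 4 lower, of which 1 clustered, and 0 higher, 0 of them clustered. Raw library totals left 1 higher at 4 h, 1 clustered. Replicates 1 and 2 alone, added after seeing the data, gave 4 lower, 4 outside the clusters. Leaving out 1 library gave 1 to 3 lower (1 to 3 outside the clusters, 0 clustered) and 3 to 7 higher (3 to 7 clustered) at 4 h. The lowest counts came without replicate 3 of 0 h (1 lower) and replicate 1 or 2 of 0 h (3 higher). At 1 h, 2 h and in the change of rate each such fit gave 0. DESeq2 weakened 2 genes of 36. No low-count filter, a filter of 10 counts in 3 libraries, and DESeq2 size factors kept 36 of 36 genes on their side. With no filter 7 were higher at 4 h, the added one being PCDHGA3, whose highest count was 8. The share of all genes called is not given for that fit or for the fits that left out 1 library. A change of the protocadherin counts in those fits therefore cannot be set against that of all genes. Under ribosomal protein scaling 14 log2 changes at 4 h turned negative: PCDH1 -0.13, PCDH10 -0.26, PCDHA10 -0.06, PCDHA12 -0.20, PCDHB2 -0.10, PCDHB5 -0.19, PCDHB6 -0.09, PCDHB14 -0.25, PCDHB16 -0.24, PCDHGA4 -0.02, PCDHGA6 -0.08, PCDHGB3 -0.19, PCDHGB5 -0.03 and PCDHGC3 -0.07. With raw totals PCDH10 (-0.05), PCDHB14 (-0.04) and PCDHB16 (-0.03) did, and with replicates 1 and 2 alone PCDHAC2 turned to 0.18. Without 1 library, uncalled changes turned for PCDHA11 (-0.10 to 0.06), PCDHA12 (-0.18 to 0.40), PCDHA13 (-0.62 to 0.01), PCDHAC2 (-0.29 to 0.16), PCDHB8 (-0.27 to 0.09), PCDHB11 (-0.40 to 0.00), PCDHB14 (-0.10 to 0.34) and PCDH1 (-0.03 to 0.35). The scalings differ by construction. Other causes were not tested. Rows with few reads have wide intervals.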
